A study of Mus musculus with 2 samples.

Results

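Chemokine ligands, the small secreted or membrane-bound proteins that direct the movement of cells, were examined in cultured retinal progenitors and in retina tissue. The 10 genes were chosen by name (Ccl2, Ccl5, Ccl7, Cxcl1, Cxcl5, Cxcl10, Cxcl12, Cxcl14, Cxcl16 and Cx3cl1) out of 31253 genes in the table. Ccl5 and Ccl2 were known to be among the most raised genes in the same comparison, so the values below are a description. There was 1 library of mouse neural retinal progenitor cells (mNRPCs), isolated from adult C57BL/6 retina and collected at passage 24, and 1 library of C57BL/6 retina tissue. The methods describe culture on Matrigel in N2/B27 medium to which CHIR99021, a GSK3 inhibitor, and bFGF, a growth factor, had been added, whereas the labels speak of a condition medium. The sources used here do not give the age of the animals behind the tissue library, the number of animals, or whether the culture derived from 1 isolation. Growth in culture and the cell types present differ together between the groups, and their parts cannot be told apart.

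Levels are FPKM, a fragment number scaled by transcript length and library depth. The estimated depth was 6.72e+06 fragments in mNRPCs and 5.10e+06 in retina. With 1 library a group no difference had a replicate check, and the 95% intervals given below cover counting error alone. Of 13780 genes compared, the median log2 ratio was −0.12, and 44.9% of the genes past the 2-fold threshold were the higher ones. Scaling both libraries to a common sum lowered the median to −0.62 and this share to 30.4%, and upper quartile scaling gave −0.23 and 41.4%. The labels were checked with marker genes. The progenitor genes Pax6, Six3, Sox2, Nes and Vim each had at least 9.42 FPKM in mNRPCs. Sox2, Nes and Vim were higher than in retina, whereas Pax6 (123 and 101 FPKM) and Six3 (39.7 and 33.2 FPKM) were within 2-fold. The 5 rod genes summed to 13586 FPKM in retina against 6.72 FPKM in mNRPCs.

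Chemokines are grouped by the spacing of the first cysteines of the mature protein. These lie side by side in CC ligands, are separated by a single residue in CXC ligands and by a stretch of 3 residues in the CX3C ligand. Most are secreted and are held on heparan sulphate at cell surfaces, and they act through G protein-coupled receptors, mainly on leukocytes. Cxcl16 and Cx3cl1 are made as transmembrane proteins with a mucin-like stalk and can be shed by ADAM proteases. In the retina, Cx3cl1 of neurons is known as a signal to microglia, and Ccl2 is known for recruiting monocytes after injury.

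The coding sequence at these cysteines is shown for members of each class, because it defines the classes by which the values are ordered below. The stretches were read from GENCODE M21 transcripts on GRCm38, from 5′ to 3′ on the coding strand, and the cysteine codons are in capitals. Each lies in exon 2 of its gene.
Ccl2, chr11:82036500-82036517, plus strand: ctcaccTGCTGCtactca
Ccl5, chr11:83529236-83529253, minus strand: actcccTGCTGCtttgcc
Cxcl10, chr5:92348175-92348195, minus strand: gtccgcTGCaacTGCatccat
Cxcl12, chr6:117171502-117171522, plus strand: taccgaTGCcccTGCcggttc
Cxcl14, chr13:56295909-56295929, minus strand: tccaagTGTaagTGTtcccgg
Cxcl16, chr11:70459121-70459141, minus strand: ggaagtTGTtctTGTgatcgt
Cx3cl1, chr8:94778045-94778071, plus strand: acgaaaTGCgaaatcatgTGCgacaag

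By this reading 3 members were CC ligands (Ccl2, Ccl5 and Ccl7), 6 were CXC ligands (Cxcl1, Cxcl5, Cxcl10, Cxcl12, Cxcl14 and Cxcl16) and 1 was the CX3C ligand. The coding sequences gave 246 residues for Cxcl16 and 395 for Cx3cl1, the membrane-bound ligands, against 89 to 148 for the others.

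Of the 10 members, 5 were at least 2-fold higher in mNRPCs, 3 were at least 2-fold lower and 2 were listed at 0 in both libraries. Among all genes compared, 24.5% were higher by this rule and 30.0% were lower. At a log2 ratio of at least 2 in size 5 members were higher and 2 were lower, against 11.2% and 14.1% of all genes. The comparison had chosen the members, so nothing is read from these shares. The CC ligands Ccl2, Ccl5 and Ccl7 were all higher in mNRPCs. The CXC ligands were split, with Cxcl10 and Cxcl12 higher, Cxcl14 and Cxcl16 lower, and Cxcl1 and Cxcl5 at 0. Both membrane-bound ligands, Cxcl16 and Cx3cl1, were lower. The 8 members with at least 1 FPKM in a library had a median log2 ratio of 4.12, midway between Cxcl12 and Ccl7, the 2 lowest of the higher members. For all genes compared it was −0.12. Over all 10 members without the filter the median was 1.40, against 0 over all 31253 genes.

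**Figure D1:**
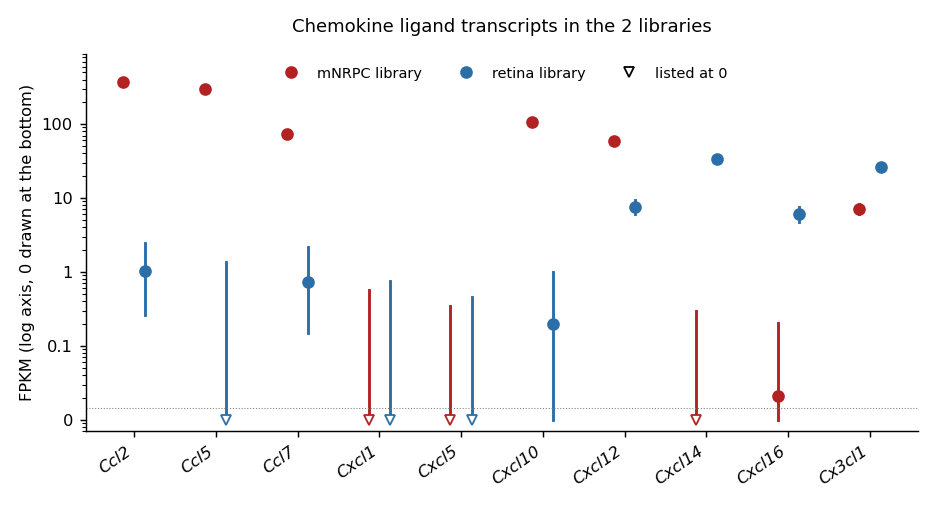
FPKM of each chemokine ligand (log axis, with 0 drawn at the bottom) in the mNRPC library (red) and the retina library (blue), with bars for the exact 95% Poisson interval of the estimated fragments. Ccl2, Ccl5, Ccl7, Cxcl10 and Cxcl12 stand higher in mNRPCs, Cxcl14, Cxcl16 and Cx3cl1 stand higher in retina, and Cxcl1 and Cxcl5 are listed at 0 in both.

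Together the 10 ligands summed to 923 FPKM in mNRPCs, 0.160% of the FPKM of all named genes, and to 75.3 FPKM in retina, 0.0194%. The make-up of this sum is given for the higher and the lower members, groups formed by this same comparison. A difference in their shares follows from that split, so the shares are a description. The 5 ligands that were higher in mNRPCs held 99.2% of the sum there and 12.7% in retina. Cxcl14, Cxcl16 and Cx3cl1 held 0.773% of the sum in mNRPCs and 87.3% in retina.

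Ccl2 encodes monocyte chemoattractant protein 1, the main ligand of the receptor Ccr2. It was at 375 FPKM in mNRPCs (95% interval 359 to 392) and at 1.02 FPKM in retina (0.263 to 2.47). The retina value came to an estimated 4.22 fragments. The level was 369-fold higher in mNRPCs, with a counting interval of 152 to 1428. Ccl2 had the highest level of the 10 ligands and lay above 98.0% of the genes detected in mNRPCs, that is, those reaching 1 FPKM there. In retina it lay above 0.269% of the detected genes.

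Ccl5, also called RANTES, attracts T cells, monocytes and other leukocytes. It was at 302 FPKM in mNRPCs (285 to 321) and was listed at 0 in retina, where 3 fragments would be 1.11 FPKM. Its log2 ratio of 8.24 depends on the pseudocount. In mNRPCs it lay above 97.4% of the detected genes. Ccl5 and Ccl2 ranked 4 and 9 from the top by log2 ratio among the 13780 genes, the pattern for which they had been chosen. Their order depends on the pseudocount. With values under 3 fragments raised to that limit and no pseudocount, Ccl2 was at 8.53 and Ccl5 at 8.09. Ccl2 alone held 40.7% of the FPKM of the 10 ligands in mNRPCs, and Ccl5 held 32.7%.

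Ccl7, a monocyte attractant closely related to Ccl2, was at 73.5 FPKM in mNRPCs (66.5 to 81.2) and at 0.732 FPKM in retina (0.151 to 2.15), an estimated 2.99 fragments. The ratio was 101, with a counting interval of 34.0 to 488. The intervals of the 3 CC ligands did not overlap in mNRPCs, where Ccl2 was highest and Ccl7 lowest. In retina the intervals of Ccl2, Ccl5 and Ccl7 did overlap, so these could not be ordered at this depth.

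Cxcl10, an interferon-induced attractant of activated T cells, was at 105 FPKM in mNRPCs (98.2 to 113) and at 0.199 FPKM in retina (0.00454 to 0.999). The retina value rested on an estimated 1.11 fragments. The ratio was 530, with a counting interval of 105 to 23280.3. In mNRPCs its level lay between those of Ccl5 and Ccl7. On the opposite strand Cxcl10 shares exonic sequence with Art3, which was at 0.0742 FPKM in mNRPCs and 0.206 FPKM in retina.

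Cxcl12, the stromal factor that guides progenitors and neurons through Cxcr4, was the ligand best measured in both libraries among those higher in mNRPCs. It was at 59.2 FPKM in mNRPCs (55.3 to 63.2) and at 7.62 FPKM in retina (6.12 to 9.44). This was 7.77-fold higher, with a counting interval of 6.19 to 9.77. Its log2 ratio of 2.80 was the smallest of the higher ligands, and it was 2.92 above the median gene. Scaling to a common sum gave 2.28, and 2.90 above the median gene under that scaling.

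The transcripts of Cxcl12 differed in their share. They encode proteins that differ at the C-terminal end. The transcript for 89 residues was at 52.3 FPKM in mNRPCs and 4.47 FPKM in retina. The one for 93 residues was at 5.50 and 0.749 FPKM. The longest, for 119 residues, was at 1.36 and 2.39 FPKM. The last one was therefore the single Cxcl12 transcript with the lower value in mNRPCs, at a log2 ratio of −0.53. It held 2.29% of Cxcl12 FPKM in mNRPCs and 31.4% in retina. Fragments shared by transcripts are divided by estimation, so these shares are less certain than the sum of the gene.

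Cxcl14, a ligand of epithelia and neurons whose receptor is not agreed on, was listed at 0 in mNRPCs on each of its 4 transcript rows. In retina it was at 33.3 FPKM (29.7 to 37.2). In mNRPCs 3 fragments would be 0.244 FPKM. With all rows summed it had the highest retina level of the 10 ligands, above 82.1% of the detected genes. On its curated transcript alone it was at 12.1 FPKM, below Cx3cl1 at 26.5 FPKM. A single predicted transcript held 48.6% of its retina value and the curated transcript 36.4%. With curated transcripts alone the log2 ratio was −3.71 instead of −5.10. Both values depend on the pseudocount, and with all rows summed the ratio was −8.38 with a pseudocount of 0.1.

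Cxcl16, the membrane-bound ligand of Cxcr6 and a scavenger of oxidised lipoproteins, was at 0.0211 FPKM in mNRPCs, which is under 1 estimated fragment (0.383). In retina it was at 6.02 FPKM (4.80 to 7.48). The mNRPC value cannot be told apart from 0 at this depth, where 3 fragments would be 0.165 FPKM. An exon of Cxcl16 overlaps Zmynd15 on the opposite strand, which was at 0.579 FPKM in retina and listed at 0 in mNRPCs.

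Cx3cl1, called fractalkine, was the lower ligand with a clear level in both libraries. It was at 7.11 FPKM in mNRPCs (6.03 to 8.29) and at 26.5 FPKM in retina (24.0 to 29.0). The level was 3.72-fold lower in mNRPCs, with a counting interval of 3.10 to 4.50. Its log2 ratio of −1.76 was the smallest in size among the 8 members that could be compared. Taken from the median gene it was −1.64, and −1.66 after scaling to a common sum.

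Cxcl1 and Cxcl5, which attract neutrophils through Cxcr2, were listed at 0 in both libraries. For Cxcl1, 3 fragments would be 0.468 FPKM in mNRPCs and 0.617 FPKM in retina. For Cxcl5 the limits were 0.283 and 0.374 FPKM. A value of 0 in this table can be a failed estimate, so it is not taken as absence of the transcript.

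**Figure D2:**
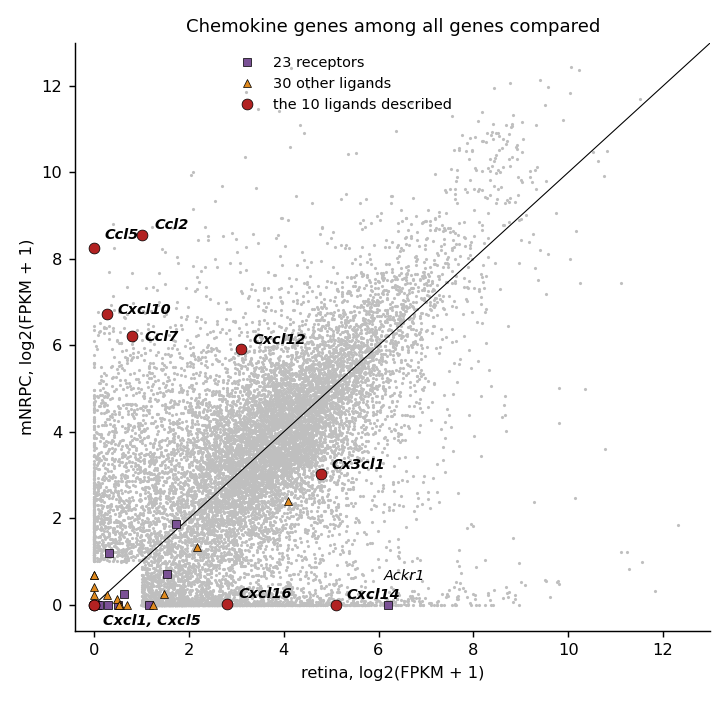
Retina level (x axis) against mNRPC level (y axis), both as log2(FPKM + 1), for 13780 genes (grey), the 10 ligands (red circles), 30 other ligands (orange triangles) and 23 receptors (purple squares), with the line of equal levels. Ccl5, Ccl2, Cxcl10 and Ccl7 lie at the upper left edge, and most other ligands and receptors lie near the origin, with Ccl27a and Ackr1 farther out towards retina.

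The upstream sequences of 5 members were in the RefSeq promoter table (Cxcl1, Cxcl10, Cxcl12, Cxcl14 and Cx3cl1). Those of Cxcl10 and Cxcl1 are shown because both hold the same kind of motif while their values differed, at 105 FPKM against a listed 0 in mNRPCs. Each is the 220 bases before the start that RefSeq gives, on the coding strand, from 5′ to 3′, in build GRCm38.p6. GENCODE starts Cxcl1 at 90891241, so the last bases of its window lie within the gene by that annotation. Capitals mark matches to GGGA-NNNN-CC, a motif of the NF-kB type, and to GAAA-NN-GAAA, the core of the interferon-stimulated response element. The letters stand in a row without the hyphens, N is any base, and both strands were searched. In Cxcl1 the second run in capitals joins overlapping matches on either strand.
Cxcl10, chr5:92348890-92349109, minus strand: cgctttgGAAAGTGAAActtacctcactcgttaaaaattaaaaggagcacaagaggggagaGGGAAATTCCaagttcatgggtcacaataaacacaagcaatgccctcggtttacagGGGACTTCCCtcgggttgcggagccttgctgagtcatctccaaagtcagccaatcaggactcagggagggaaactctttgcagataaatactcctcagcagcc
Cxcl1, chr5:90891025-90891244, plus strand: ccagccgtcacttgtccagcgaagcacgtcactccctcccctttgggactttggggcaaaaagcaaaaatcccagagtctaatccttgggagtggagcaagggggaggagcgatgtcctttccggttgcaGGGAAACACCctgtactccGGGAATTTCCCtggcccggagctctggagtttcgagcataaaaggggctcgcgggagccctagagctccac

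Within 250 bases before the start, Cxcl10 had the NF-kB type motif at 159 and 103 bases upstream, the second on both strands, and the response element core at 213 bases upstream. Cxcl1 had the NF-kB type motif at 90 and 71 bases upstream, and a match on the other strand at 70 bases that overlaps the latter. Cxcl14, listed at 0 in mNRPCs, had the response element core at 172 bases upstream. Among 32851 promoters of the same length, 17.6% held the NF-kB type motif and 2.98% the response element core. The letters TATAAA were found in 12.4% of all promoters and in Cx3cl1 among the members. The RefSeq window of Cx3cl1 ends at 94772179, inside the gene as GENCODE places it (start 94772009), so that match is not placed against its start. Cxcl12 held none of these letters in this window. A match is a description of the sequence and not of binding.

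Many ligand genes lie in clusters, and neighbours differed sharply in level. Ligand genes less than 200000 bp apart were put in a cluster, with positions from GENCODE M21 on GRCm38. The CC cluster on chromosome 11 from 82035571 to 82305690 holds Ccl2, Ccl7, Ccl11, Ccl12, Ccl8 and Ccl1 in this order. Ccl2 and Ccl7, the neighbours at one end, were at 375 and 73.5 FPKM in mNRPCs. Ccl11 was at 0.173 FPKM there, and Ccl12, Ccl8 and Ccl1 were listed at 0. In the second cluster on this chromosome, from 83525778 to 83664683, Ccl5 was at 302 FPKM in mNRPCs, while Ccl9, Ccl6, Ccl3 and Ccl4 had at most 0.331 FPKM.

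On chromosome 5, Cxcl10 lies between Cxcl9 and Cxcl11 in a stretch of 44.1 kb from 92321347 to 92365485. All 3 encode ligands of Cxcr3 that interferon is known to induce. Cxcl10 was the one with signal, and Cxcl9 and Cxcl11 were listed at 0 in both libraries. The neutrophil attractant cluster from 90759360 to 90905938 holds 7 ligand genes, among them Cxcl1 and Cxcl5. None reached 1 FPKM in either library, and the highest value was 0.624 FPKM for Cxcl3 in mNRPCs. On chromosome 8, Cx3cl1 lies between Ccl22 and Ccl17, both listed at 0 in both libraries. Cxcl12 (chromosome 6, 117168535 to 117181367), Cxcl14 (chromosome 13, 56288643 to 56296551) and Cxcl16 (chromosome 11, 70453983 to 70459984) had no ligand gene within that distance.

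**Figure D3:**
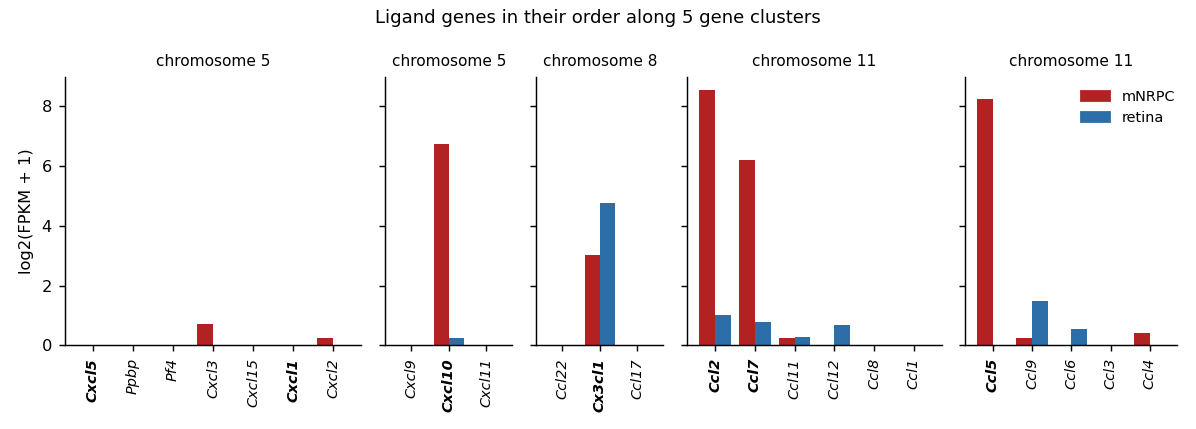
Levels as log2(FPKM + 1) of ligand genes in their order along the 5 clusters that hold a member (bold names), with mNRPCs in red and retina in blue. Ccl2, Ccl7, Ccl5 and Cxcl10 stand out in mNRPCs among neighbours near 0, and Cx3cl1 is the one gene of its cluster with a level.

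Of the remaining 30 ligand genes, 15 were listed at 0 in both libraries, as were 12873 of all 31253 genes, and 4 reached 1 FPKM in a library. On the scale with the pseudocount, 3 of the 4 were lower in mNRPCs, 1 was within 2-fold and none was higher, beside 30.0% lower and 24.5% higher among all genes. Of the 3, Ccl9 and Ccl21c reached 1 FPKM in retina alone, so they could not have been called higher. The median log2 ratio of the 4 was −1.23, and −2.27 with a pseudocount of 0.1. Ccl27a, a skin-homing ligand, was at 4.31 FPKM in mNRPCs and 15.9 FPKM in retina (log2 ratio −1.67). It shares an exon overlap with Il11ra1 on the opposite strand, which was at 52.5 and 18.6 FPKM, and it has near-identical gene copies, so its value is uncertain. Ccl25, a thymus and gut ligand, was at 1.51 and 3.50 FPKM (−0.84, which without the pseudocount was 2.31-fold lower with a counting interval of 1.03 to 5.30), nearly all on 1 predicted transcript row, and its exons overlap Elavl1 on the opposite strand (16.9 and 14.3 FPKM). Ccl9 was at 0.194 and 1.78 FPKM (−1.22). Ccl21c, one of several near-identical copies, was listed at 0 in mNRPCs and at 1.35 FPKM in retina. Of the FPKM of all 40 ligand genes, the 10 members held 99.1% in mNRPCs and 75.3% in retina.

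Of 23 receptor genes, 19 were listed at 0 in mNRPCs and 12 in both libraries. Among all 31253 genes, 16079 were at 0 in mNRPCs and 12873 in both. At least 1 FPKM was reached by 2 receptors in mNRPCs and by 4 in retina. On the scale with a pseudocount of 1, none was higher in mNRPCs by the 2-fold rule, 2 were lower and 3 were within 2-fold. The 2 lower ones, Cxcr4 and Ackr1, reached 1 FPKM in retina alone, so they could not have been called higher. The median log2 ratio of the 5 compared was −0.84, and −1.46 with a pseudocount of 0.1. Among all genes 24.5% were higher and 30.0% lower.

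Ccr1, Ccr2, Ccr3 and Cxcr3, receptors of Ccl2, Ccl5, Ccl7 or Cxcl10, were at or near 0 in both libraries. Ccr2, which binds Ccl2 and Ccl7, was listed at 0 in mNRPCs and at 0.0458 FPKM in retina, which is under 1 fragment (0.700). Ccr1, which binds Ccl5 and Ccl7, was listed at 0 in mNRPCs and at 0.220 FPKM in retina. Ccr3, a further receptor of Ccl5, was listed at 0 in both libraries, as was Cxcr3, the receptor of Cxcl10. In mNRPCs 3 fragments of Cxcr3 would be 0.258 FPKM.

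Receptors of the other members were as follows. Cxcr4, the signalling receptor of Cxcl12, was listed at 0 in mNRPCs and at 1.25 FPKM in retina. Ackr3, the atypical receptor that takes up Cxcl12, was at 0.631 FPKM in mNRPCs and 1.91 FPKM in retina (log2 ratio −0.84), which without the pseudocount was 3.03-fold lower, with a counting interval of 1.54 to 6.35. Cxcr2, the receptor of Cxcl1 and Cxcl5, was at 2.63 and 2.32 FPKM, a ratio of 1.14 with a counting interval of 0.733 to 1.79. It was thus the conventional receptor with the highest mNRPC level, while its ligands Cxcl1 and Cxcl5 were listed at 0. Cx3cr1, the microglial receptor of Cx3cl1, was listed at 0 in mNRPCs and at 0.428 FPKM in retina, an estimated 8.19 fragments. Cxcr6 was listed at 0 in both.

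Ccrl2, a receptor-like protein that does not signal as a chemokine receptor, was at 1.28 FPKM in mNRPCs and 0.237 FPKM in retina (log2 ratio 0.88). Without the pseudocount this was 5.41-fold higher, with a counting interval of 1.59 to 27.8. Ackr1, an atypical receptor of endothelium and red cells that binds many ligands, was listed at 0 in mNRPCs and at 72.1 FPKM in retina. Its exons overlap those of Cadm3 on the same strand, a neuronal adhesion gene listed at 0 in mNRPCs and at 60.8 FPKM in retina. Reads of the shared part cannot be assigned with certainty, so the retina level of Ackr1 is uncertain.

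**Figure D4:**
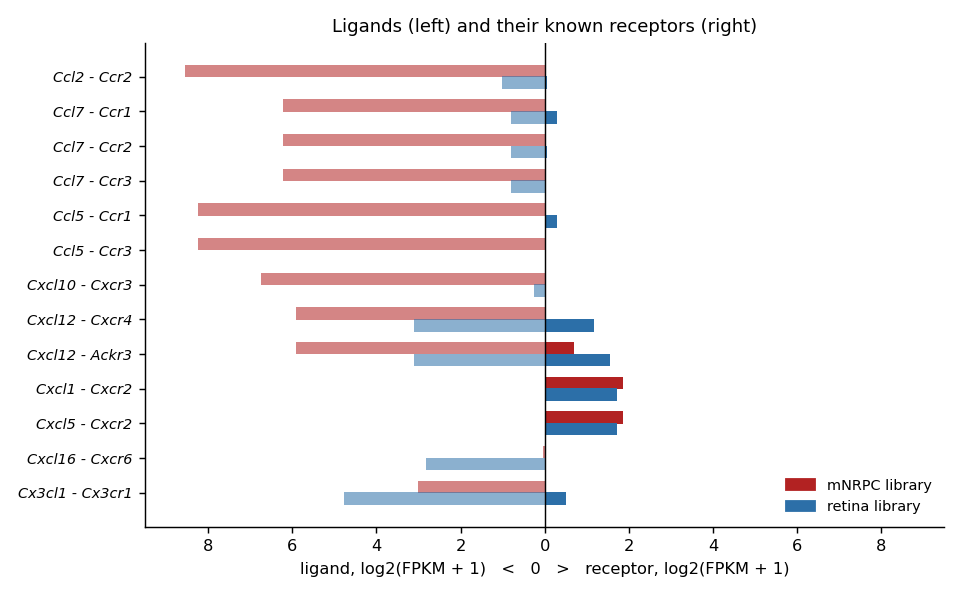
Levels as log2(FPKM + 1) of each ligand (left bars, pale) and a receptor known to bind it (right bars), with mNRPCs in red and retina in blue. The long left bars of Ccl2, Ccl5, Ccl7 and Cxcl10 in mNRPCs face receptors at or near 0, whereas Cxcr2 has similar bars in both libraries and its ligands have none.

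Of 4 processing enzymes 3 were higher in mNRPCs. The other, Dpp4, a peptidase that trims several chemokines, did not reach 1 FPKM and was not compared. Its values were 0.0370 FPKM for mNRPCs, on 1.31 estimated fragments, and 0.666 FPKM for retina. The counting interval of the ratio of retina to mNRPCs was 3.75 to 989. Adam10, the main constitutive sheddase of Cx3cl1 and Cxcl16, was at 60.9 FPKM in mNRPCs and 15.3 FPKM in retina (log2 ratio 1.93), while both of its substrates were lower. Adam17, the inducible sheddase, was at 13.6 and 4.93 FPKM (1.30), and shares an exon overlap with Iah1 on the opposite strand (25.2 and 8.16 FPKM). Mmp2, which can clip Cxcl12 and Ccl7, was at 36.7 and 1.29 FPKM (4.04). Of 6 proteoglycan genes 5 were higher and 1 was lower. Sdc4 was at 161 and 28.8 FPKM, Gpc1 at 92.1 and 9.10 FPKM, and Sdc2 at 86.6 and 19.1 FPKM. Sdc1 was at 29.8 and 0.335 FPKM. These counts stand beside 24.5% higher and 30.0% lower among all genes.

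Transcription of Ccl2, Ccl5 and Cxcl10 is known to be induced through NF-kB and through interferon signalling. Of 22 NF-kB pathway genes 11 were higher in mNRPCs, 4 were lower and 7 were within 2-fold, beside 24.5% higher and 30.0% lower among all genes. Their median log2 ratio was 1.29. Scaling to a common sum lowered it to 0.77, while the median of all genes compared moved from −0.12 to −0.62. Nfkbia, the inhibitor that NF-kB itself induces, was at 69.5 FPKM in mNRPCs and 17.4 FPKM in retina (1.94). Tnfrsf1a, the main receptor of tumour necrosis factor, was at 44.2 and 3.25 FPKM (3.41), and Nfkb2, a subunit gene, at 34.1 and 0.665 FPKM (4.40). Tnfaip3, which restrains the pathway, went the other way, at 6.17 and 84.6 FPKM (−3.58).

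Of 11 interferon regulators 8 were higher, none was lower and 2 were within 2-fold, against 24.5% higher and 30.0% lower among all genes. The median was 2.17 over the 10 compared. Irf7, a factor that drives type I interferon genes, was at 381 FPKM in mNRPCs and 9.27 FPKM in retina (5.22). Irf9 was at 74.4 and 7.27 FPKM (3.19), Irf1 at 66.0 and 3.06 FPKM (4.04) and Stat2 at 56.6 and 4.11 FPKM (3.50). Whether these genes act on the ligands was not tested.

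**Figure D5:**
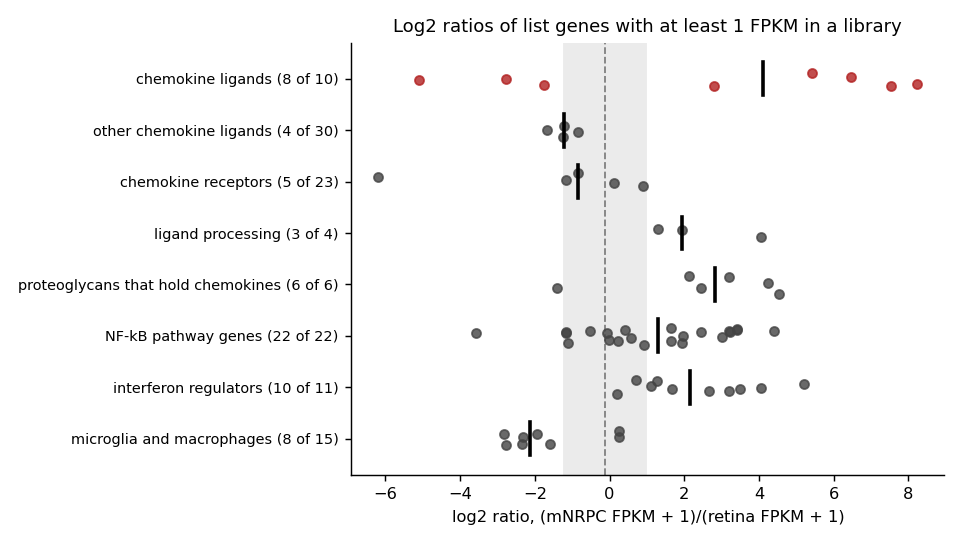
Log2 ratios (x axis) of the genes of each list with at least 1 FPKM in a library (points, with the number of genes shown of the list in brackets), the list median (black bar), and the median and interquartile range of all genes compared (dashed line and grey band). The ligands fall into a higher group between 2.80 and 8.24 and a lower group between −5.10 and −1.76. The list median of 4.12 falls within the higher group.

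Leukocytes are a known source of Ccl5 and other ligands, so their markers were read in the same libraries. Of 15 microglia and macrophage markers 11 were listed at 0 in mNRPCs, among them Ptprc, Aif1, Itgam, C1qa, C1qb, C1qc and Tyrobp, beside 16079 of all 31253 genes. Of the 8 compared, 6 were lower and 2 were within 2-fold, beside 30.0% lower among all genes. The 6 lower markers reached 1 FPKM in retina alone, so they could not have been called higher. The summed level of the 15 markers was 3.12 FPKM in mNRPCs and 29.6 FPKM in retina. Cd68 (1.82 FPKM in mNRPCs, 1.35 in retina) and Tmem119 (1.22 and 0.880) gave most of the mNRPC sum, and both were within 2-fold. Of 7 T and NK cell markers 5 were listed at 0 in mNRPCs, including Cd3d, Cd3e and Cd3g, and their sum was 0.907 FPKM in mNRPCs and 3.40 FPKM in retina. Of the 2 compared, Cd3g was lower and Lck was within 2-fold. Both reached 1 FPKM in retina alone, so neither could have been called higher. Lck, a T cell kinase, gave most of the mNRPC sum, at 0.801 FPKM against 1.07 FPKM in retina. The libraries are of bulk RNA, so fewer cells of a type and less RNA per cell cannot be told apart.

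Markers of other cells of the eye were read as well. Among all genes 24.5% were higher and 30.0% lower. All 7 Müller glia markers were lower, with a sum of 86.7 FPKM in mNRPCs and 2257 FPKM in retina. The sum of 7 endothelial markers was 0.151 FPKM in mNRPCs and 39.5 FPKM in retina, with Kdr and Cldn5 at 29.5 and 6.04 FPKM in retina. The 4 markers of pigment epithelium summed to 0.207 and 11.0 FPKM. The 9 markers of pericytes and fibroblasts were mixed, with sums of 9.67 and 15.1 FPKM. Of the 5 compared, 1 was higher (Pdgfrb, 4.49 and 1.24 FPKM), 1 was lower (Rgs5, listed at 0 and at 8.16 FPKM) and 3 were within 2-fold, and the median log2 ratio was 0.31. The part of these cells in the ligand values was not tested.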

How the data were processed

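RNA sequencing values of 1 mNRPC library and 1 retina library were used, with groups taken from the labels. The authors deposited FPKM values, fragment numbers scaled by transcript length and by mapped depth, for RefSeq transcripts, and every per-sample column belonged to one of these libraries. The submitters' processing notes name TopHat2 2.0.10, TopHat and genome build GRCm38.p3. The study's methods name Bowtie 2 and eXpress, which divides fragments among similar transcripts, so it is not settled which chain made the table. The sources also name different sequencers. Strandedness is not given in the sources used here.

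Of 106754 transcript rows, 74283 were matched to a gene symbol without the accession version, through RefSeq (GRCm38.p6) and then GENCODE M21, and rows of a symbol were summed to 31253 genes. Values under 1e-06 FPKM were read as 0. Depth was estimated from the FPKM value at which low rows of transcripts of at least 1500 bp gather, taken as 1 fragment. Fragment numbers of genes follow from this depth and the full transcript length, averaged over the rows that had a length. Predicted rows had none, so the other rows of a gene set its length. This applies to Ccl25 and Cxcl14, whose fragment numbers and intervals are therefore less certain. Where the program used a shorter effective length, the numbers of short transcripts such as Ccl5 are too high. Intervals are exact 95% Poisson intervals for levels and Clopper-Pearson intervals for folds, and cover counting error only. The limit of detection was set at 3 fragments. Log2 ratios are log2 of (mNRPC FPKM + 1)/(retina FPKM + 1), for genes of at least 1 FPKM in a library, which understates the change of low genes. Higher or lower means a log2 ratio of at least 1 in size. A gene that reached 1 FPKM in 1 library alone could not be called in the opposite direction. With 1 library a group there was no test between groups and no p-value. The calculation was tested on simulated data with counting error alone, and log2 ratios were checked for genes well above the detection limit. Changes as large as those of Ccl2 and Ccl5, against retina values near 0, were not covered.

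The members, the gene lists and the alternatives were chosen with earlier results of these data known. All members were named. Of the other ligands, the receptors and the processing enzymes, each gene of at least 1 FPKM in a library was named, and of the further lists the rule was at most the 4 with the highest FPKM. Cell type markers, cytokines and Dpp4 were named beyond this rule after their values were seen. Receptors known to bind a member were named as well, except for 1 that is not reported here. Alternatives were the pseudocount, the scaling, the filter, the rows and the 3-fragment limit. Python 3.11.15, pandas 2.3.3, numpy 2.4.6, scipy 1.17.1 and matplotlib 3.10.9 were used.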

Additional observations from a re-analysis of the deposited data

How the results depend on the processing

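The alternatives of pseudocount, scaling, filter and rows each gave 5 higher and 3 lower members, except that Cxcl16 could not be matched by accession version, which left 2 lower members. A threshold of 2 on the log2 scale also left 2 lower members. Log2 ratios of single members were counted as moved in 16 instances, and none changed sign. Of these, 6 came with a pseudocount of 0.1, 5 at the 3-fragment limit and 3 with a common sum. For Ccl2 and Ccl7 the moved values stayed within the counting intervals of their folds. A filter cannot move a single ratio, nor can the choice of rows where a gene has 1 row. The median of the compared members, 4.12, was 4.71 with a pseudocount of 0.1, 4.80 with values under 3 fragments raised to that limit and no pseudocount, 5.43 with versioned accessions (7 members) and 1.40 without a filter (10 members). Leaving out 1 member gave 2.80 without Ccl2, Ccl5, Ccl7 or Cxcl10 and 5.43 without Cxcl12, Cxcl14, Cxcl16 or Cx3cl1, so this median depends on which members enter. With a pseudocount of 0.1 the median of the other ligands moved to −2.27. Scaling to a common sum lowered the median of NF-kB pathway genes to 0.77 and that of interferon regulators to 1.66. The same scaling moved the median of all genes compared from −0.12 to −0.62. The members' share of the library was 0.211% in mNRPCs with versioned accessions and 0.0156% in retina with curated transcripts, which leave out the predicted rows of Cxcl14. In mNRPCs the versioned match left out Cxcl16, at 0.0211 FPKM, and kept the other members with signal there. The higher mNRPC share therefore reflects a smaller FPKM sum of all named genes. Depth limits the retina values of Ccl2, Ccl5, Ccl7 and Cxcl10 and the mNRPC values of Cxcl14 and Cxcl16, each under 5 estimated fragments. No paired analysis was possible because there was 1 library in each group.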

Other observations

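Cytokines that can induce these ligands were read as a list of 7 genes. Il6, a cytokine of many tissue cells, had 10.6 estimated fragments in mNRPCs (1.38 FPKM) and was listed at 0 in retina. Ifnb1, the gene of interferon beta, had 3.16 estimated fragments there (0.627 FPKM) and likewise 0 in retina. In retina Tnf had 0.112 FPKM and Il1a 0.179 FPKM, and neither was above 0 in mNRPCs. Il1b, Il17a and Ifng were listed at 0 in both libraries.

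Among the other ligands, Ccl4, Ccl20, Cxcl2 and Cxcl3 were above 0 in mNRPCs and listed at 0 in retina, and were named after their values were seen. Their mNRPC values were 0.331, 0.622, 0.176 and 0.624 FPKM, and came to 1.47, 3.23, 1.31 and 4.26 estimated fragments. The opposite was found for Ccl6, Ccl12 and Cxcl13, listed at 0 in mNRPCs and at 0.461, 0.608 and 0.433 FPKM in retina, on 3.38, 1.66 and 2.54 estimated fragments. It was also found for the near-identical copies Ccl21a, Ccl21b and Ccl21c, of which Ccl21c alone exceeded 1 FPKM.

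Genes with levels most like Ccl5, by distance over the 2 libraries in log2(FPKM + 1), were Cdkn2a (303 FPKM in mNRPCs, 0.333 in retina), Ube2c (205 and 0.246) and Col3a1 (450 and 0.311). Those most like Ccl2 were Emp3 (425 and 1.34), Igfbp3 (298 and 1.71) and Lxn (287 and 1.83). With 2 libraries such likeness is a description of levels alone.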
